A study of Homo sapiens with 3 samples.

Results

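The genes of G2 and mitosis, 48 in all among the 60609 genes of the count tables, were followed in 3 libraries of NCI-H209, a cell line long grown from a human small cell lung cancer. The list was drawn up by function and matched to the tables by gene symbol, and all 48 were found. The libraries were sh1362 and sh490, each made from cells with a different doxycycline-inducible lentiviral hairpin against YES1, a Src-family tyrosine kinase, and shGFP, the control, with a hairpin against GFP, a gene that human cells lack. Hairpins were carried in the plasmid Tet-pLKO-puro, and a protocol that the labels repeat for all 3 libraries has 1 µg/mL of doxycycline added every 2 days. Whether cells were pooled or cloned after infection, and how long they were induced, is not given in the sources used here. There was 1 library of each hairpin, so no difference between single libraries has a replicate check.

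Entry into mitosis is driven by the kinase CDK1 bound to cyclin B, switched on by CDC25 phosphatases and reinforced by the Polo and Aurora kinases. Condensins and topoisomerase II then shape the chromosomes, kinesins and their partners build the spindle, and kinetochores tie it to the centromeres. The spindle checkpoint holds back CDC20 and the anaphase-promoting complex until every kinetochore is attached, and cleavage of the cell follows. Most of these genes are transcribed late in the cell cycle, through the MuvB complex with B-MYB (MYBL2) and FOXM1, and are kept low in resting cells by the DREAM form of the same complex. Small cell lung cancer usually lacks working RB protein and has a high share of dividing cells.

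YES1 was low in the libraries of both YES1 hairpins. It had 216 counts in sh1362, 163 in sh490 and 1465 in shGFP, and the normalised level was 9.66% of shGFP with sh1362 (8.33 to 11.1) and 6.79% with sh490 (5.74 to 7.98). Over both hairpins its log2 fold was -3.60 (SE 0.303), with an adjusted p of 0.00757 by edgeR's quasi-likelihood test. Levels were compared after scaling by total counts and TMM factors, and bracketed ranges are exact 95% counting intervals of the ratio. They cover counting error only, and with 1 library of each hairpin no variation between cultures. PCR copies of 1 molecule are counted as separate reads, so the intervals may be too narrow even for counting error. Total counts were 7421552 in sh1362, 7791747 in sh490 and 4899006 in shGFP, and mitochondrial transcripts took 7.78%, 5.50% and 5.47% of them in that order. All 10 neuroendocrine markers were detected, among them SYP (synaptophysin) at 142, 126 and 141 TPM (a unit scaled for exon length and depth) in sh1362, sh490 and shGFP. Of 5 fibroblast genes, COL1A1 had 35 to 70 counts per library and the other 4 at most 4. Red cell genes summed to 151 counts in sh1362, 148 in sh490 and 3555 in shGFP, mostly HBB at 140, 136 and 3124. ALAS2 had 1, 1 and 13 counts, and AHSP and CA1 were at 0 in all libraries. The 8 white cell genes summed to 14, 5 and 38 counts. Among them S100A9 had 0, 1 and 20 and LYZ 9, 1 and 3, with CD3E and ITGAM at 0.

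Mitotic genes were lower in sh1362 than in the other libraries. In sh490 they stood near shGFP, more of them below it than above. Together they took 0.448% of all counts in sh1362 (exact 95% interval 0.444 to 0.453), 0.850% in sh490 (0.844 to 0.857) and 0.886% in shGFP (0.878 to 0.894). Their summed normalised counts in sh1362 were 53.9% (53.2 to 54.6) of sh490 and 50.2% (49.5 to 50.9) of shGFP, and those in sh490 were 93.1% (91.999 to 94.3) of shGFP. In bulk RNA, fewer cells in G2 and mitosis and less of these transcripts per cell cannot be told apart. The share of mitochondrial transcripts was highest in sh1362 and that of globin reads in shGFP. Both kinds were then taken out of the totals together and TMM factors set again. The counts of mitotic genes at least 2-fold lower were the same (19 for sh1362 over sh490, 19 for sh1362 over shGFP and 0 for sh490 over shGFP). TMM already offsets most shifts of this kind, so that outcome was largely set by the scaling. What the mitochondrial and globin differences mean for the libraries was not tested. Neuroendocrine markers were not level either: 8 of 10 were higher in sh1362 than in sh490 (median log2 0.50) and 7 of 10 higher than in shGFP (median 0.23). Below 0 on the log2 scale were 2 of 10 over sh490 (all genes 51.7%) and 3 of 10 over shGFP (all genes 50.7%). In sh1362 GRP was at 70.2% (58.7 to 83.9) of sh490 and 79.1% (64.4 to 97.2) of shGFP. CALCA was at 84.1% (82.8 to 85.4) of shGFP in sh1362 and SCG2 at 87.7% (83.4 to 92.2). Summed, the 10 were at 103% (102 to 104) of shGFP in sh1362. INSM1 had 2716 counts in sh1362, 1580 in sh490 and 529 in shGFP, or 185% (173 to 197) of sh490 and 336% (306 to 369.8) of shGFP in sh1362. DDC and NCAM1 were at 197% (189 to 206) and 200.01% (186 to 216) of sh490 in sh1362, and SCG2 at 48.9% (46.2 to 51.8) of shGFP in sh490. Their part in the result was not tested.

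**Figure D1:**
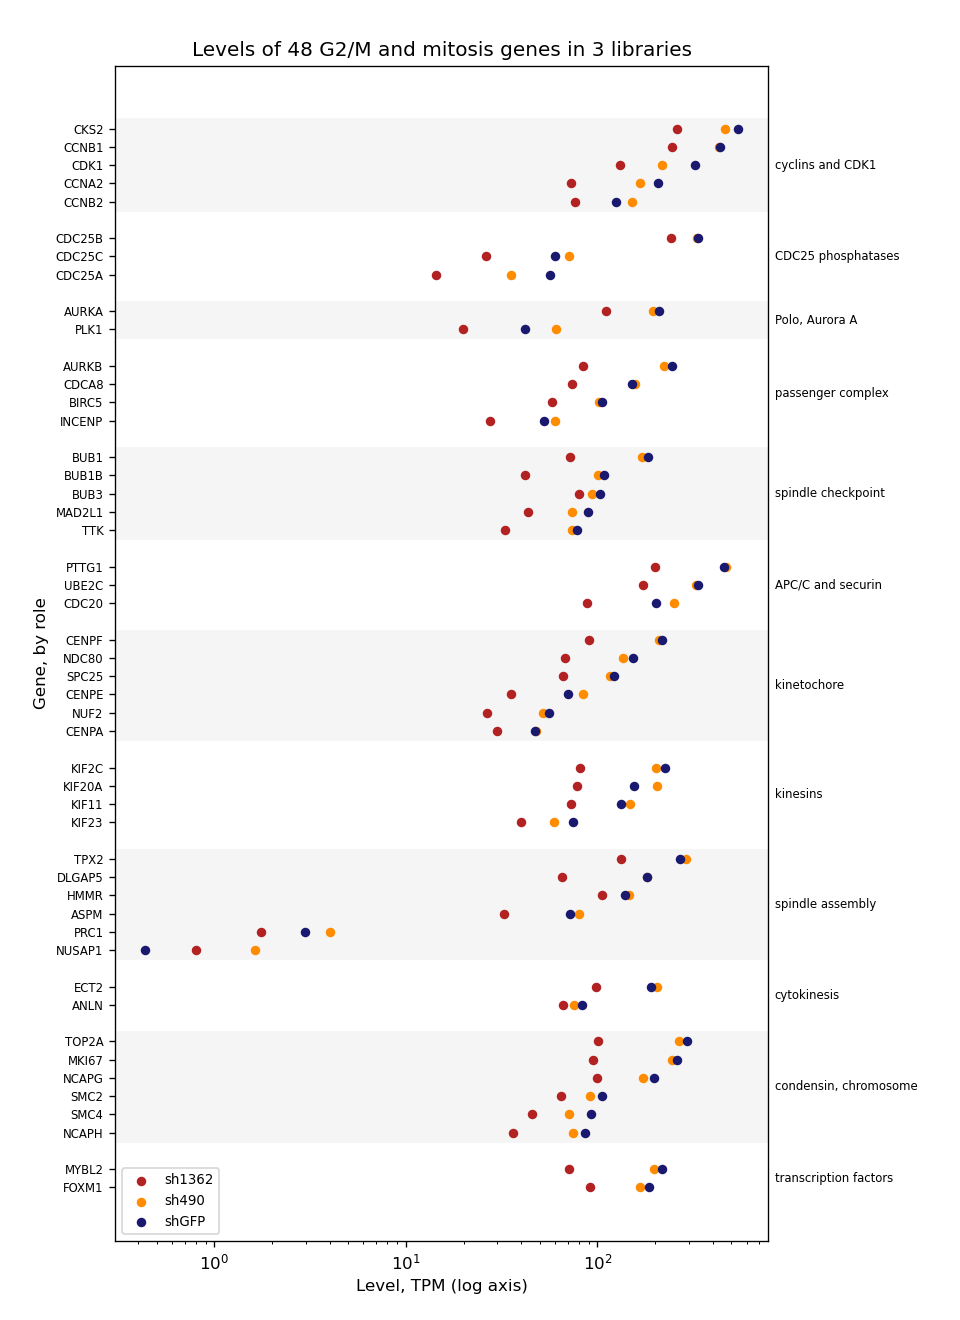
Level of each of 48 G2/M and mitosis genes in TPM (log axis), grouped by role, with 1 point per library (sh1362 red, sh490 orange, shGFP dark blue). The red point is the lowest of the 3 for every gene except NUSAP1, and sh490 and shGFP lie close together for most genes.

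Folds were counted where the mean over the 3 libraries reached 5 CPM (counts scaled to library size), which 46 of the 48 genes did. Compared with sh490, 19 of 46 were at least 2-fold lower in sh1362, where 3.88% of all 11632 such genes were, and 0 were at least 2-fold higher, against 2.02% of all genes. Compared with shGFP, 19 of 46 were at least 2-fold lower in sh1362, against 5.99% of all genes, and 0 were at least 2-fold higher, against 3.29%. In sh490 0 of 46 lay at least 2-fold below shGFP, against 1.42% of all genes, and 0 at least 2-fold above it, against 1.39%. Below 0 on the log2 scale were 46 of 46 for sh1362 over sh490 (all genes 51.7%), 46 for sh1362 over shGFP (all genes 50.7%) and 33 for sh490 over shGFP (all genes 49.9%). The comparisons with shGFP share that library, and the comparison of the hairpins does not use it.

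The median log2 fold of the 46 genes was -0.92 for sh1362 over sh490, where the median of all genes was -0.02. It was -0.95 for sh1362 over shGFP and -0.14 for sh490 over shGFP, beside -0.01 and 0.0011 over all genes. As measured by the intervals, counting error was smaller than most of these differences from sh1362. The interval lay wholly below equality in 45 of 46 genes against sh490 (all genes 29.2%) and in 46 of 46 against shGFP (all genes 29.2%). It lay above equality in 0 and 0 (all genes 26.2% and 26.8%). For sh490 over shGFP the interval lay below equality in 22 of 46 genes, a larger share than among all genes (21.8%). It lay above equality in 6 of 46, a smaller share than among all genes (20.9%).

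**Figure D2:**
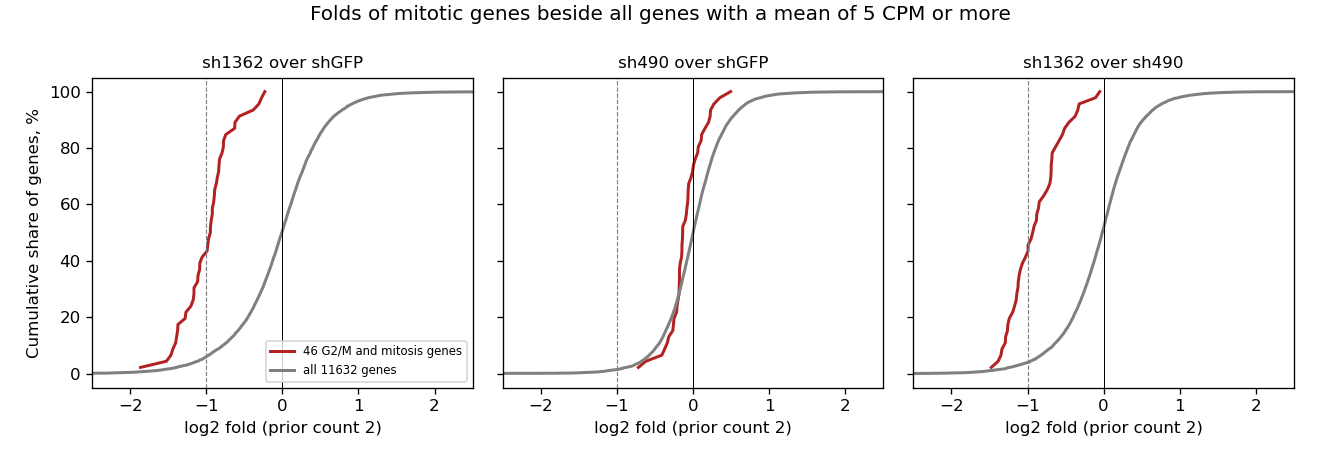
Cumulative share of genes (%) by log2 fold in each comparison, for the 46 G2/M and mitosis genes that reached 5 CPM (red) and all 11632 genes that did (grey); the dashed line marks 2-fold lower. In both comparisons of sh1362 the red line lies to the left of the grey one and has reached 100% before 0, and in sh490 over shGFP the lines cross left of 0, where 33 of 46 mitotic genes and 49.9% of all genes lie below 0.

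With both hairpins taken as 2 samples of 1 group against shGFP, no mitotic gene passed. By edgeR's quasi-likelihood test with Benjamini-Hochberg adjustment, 0 of 48 had an adjusted p under 0.05, against 0.0255% of 15708 genes called lower and 0% called higher, and the lowest adjusted p of a mitotic gene was 0.986. At an unadjusted p under 0.05 there were 2, CDK1 (edgeR log2 fold -0.88, SE 0.31, unadjusted p 0.0209) and CDC25A (-1.19, SE 0.46, unadjusted p 0.0358), each lower in 2 of 2 hairpin libraries, where 4.36% of all genes had such a p. DESeq2 and limma-voom called 0 of 48 as well, with 2 at an unadjusted p under 0.05 in each. The fit has 1 residual degree of freedom and takes the difference between the hairpins as its error, and the labels do not say that the libraries came from separate cultures. The median over the 46 genes was -0.52 with the hairpins averaged, -0.95 without sh490 and -0.14 without sh1362, so it rests on the hairpin chosen.

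**Figure D3:**
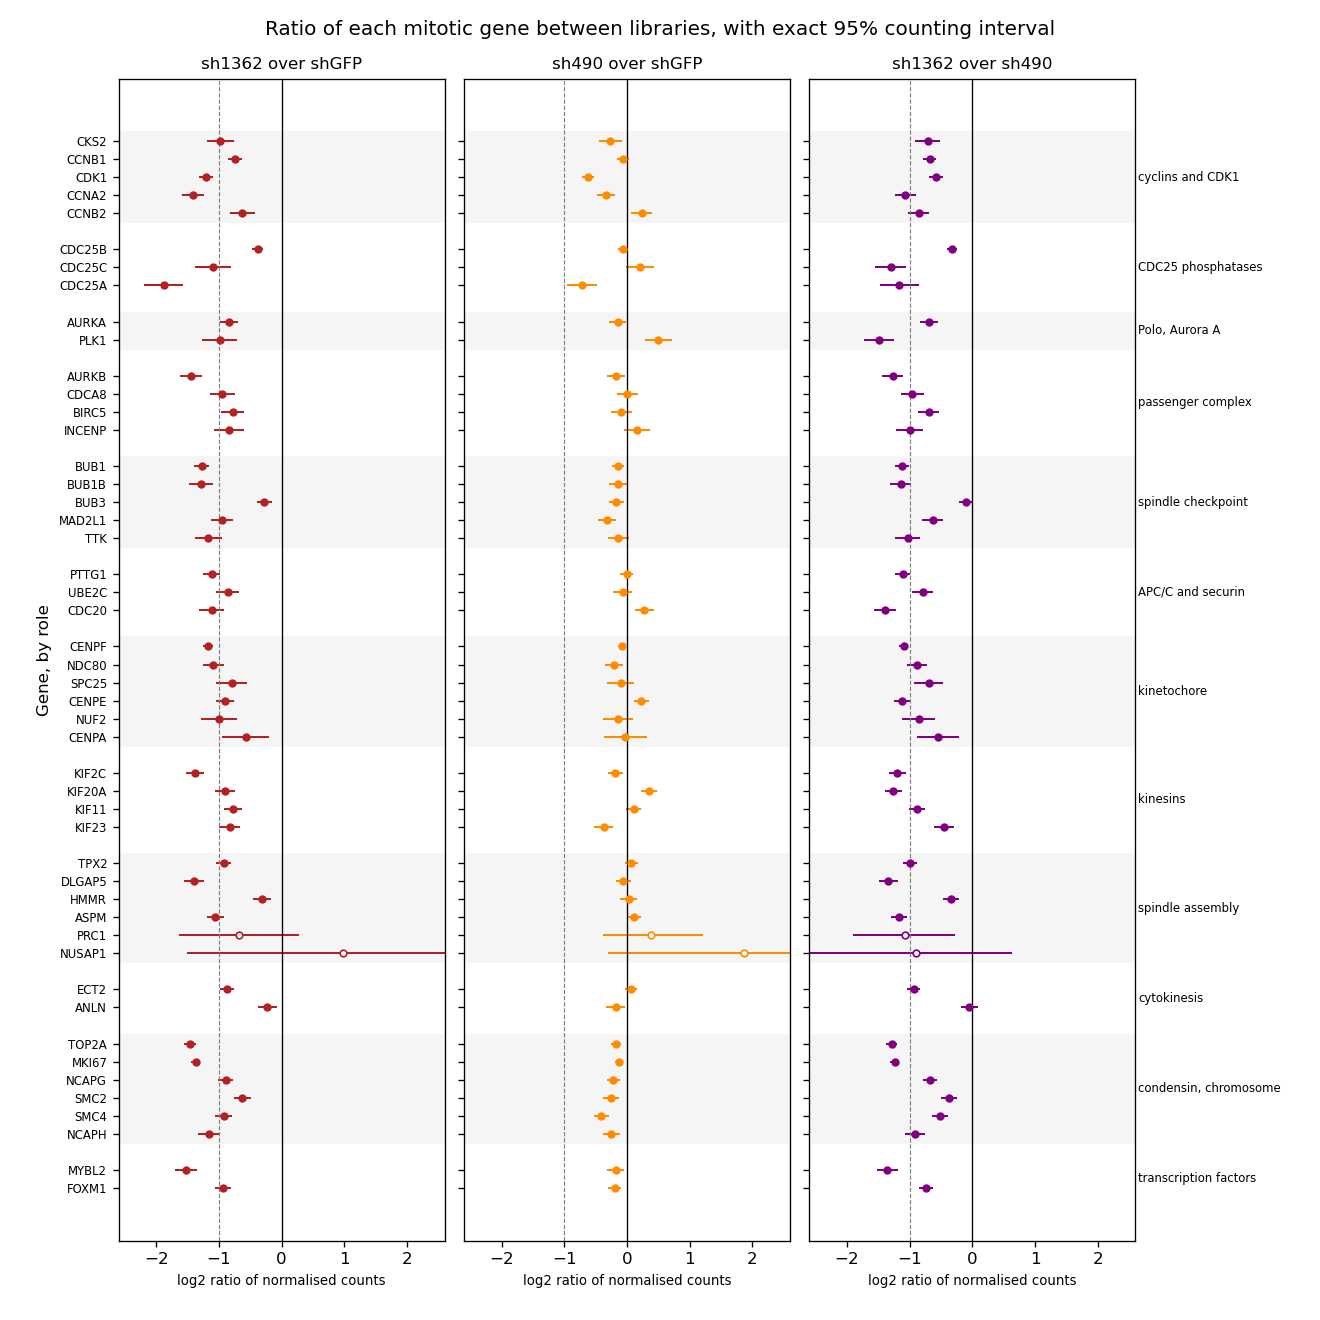
log2 ratio of normalised counts for each of the 48 genes in 3 comparisons (panels), with the exact 95% counting interval as a bar; solid lines mark equality and dashed lines 2-fold lower. Open points are PRC1 and NUSAP1, which lie under a mean of 5 CPM, and the intervals of NUSAP1 run past the axes. Points in the sh1362 panels lie left of equality for all filled genes, and those of sh490 over shGFP scatter on both sides of it.

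CDK1 and the cyclins were lower in sh1362 than in both other libraries. CDK1 (ENSG00000170312.16, chromosome 10, 60778331 to 60794852, plus strand of GRCh38), the kinase that drives mitotic entry, had 1073 counts (132 TPM) in sh1362, 1729 (216 TPM) in sh490 and 1622 (323 TPM) in shGFP. Its level was 43.3% (40.1 to 46.8) of shGFP with sh1362 and 65.03% (60.7 to 69.6) with sh490, and in sh490 only CDC25A lay further below shGFP. CCNA2 had 423 counts (72.95 TPM) in sh1362, 954 (167 TPM) in sh490 and 736 (206 TPM) in shGFP. CCNA2 (ENSG00000145386.10, chromosome 4, 121816444 to 121823933, minus strand) encodes cyclin A2, the partner of CDKs from S phase into mitosis, and stood at 47.6% (42.4 to 53.4) of sh490 in sh1362. CCNB1 had 1235 counts (245 TPM) in sh1362, 2126 (429 TPM) in sh490 and 1357 (436 TPM) in shGFP. CCNB1 encodes cyclin B1, the main mitotic partner of CDK1, and its level in sh1362 was 59.6% (55.1 to 64.4) of shGFP, while in sh490 it was 95.6% (89.2 to 102) and overlapped equality. Cyclin B2 (CCNB2) was the highest of this group in sh490, at 117% (105 to 132) of shGFP, against 64.8% (56.6 to 74.1) in sh1362. The CDK-binding subunit CKS2 stood at 50.8% (43.9 to 58.8) of shGFP in sh1362 and 83.1% (73.2 to 94.4) in sh490.

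The 3 CDC25 phosphatases, which remove the inhibitory phosphates from CDKs, differed in how far they lay below sh490 in sh1362. CDC25A had 124 counts (14.4 TPM) in sh1362, 298 (35.3 TPM) in sh490 and 300 (56.6 TPM) in shGFP. CDC25A (ENSG00000164045.12, chromosome 3, 48157146 to 48188417, minus strand), which also acts at the start of S phase, had the lowest fold of all 46 genes against shGFP, at log2 -1.87 with sh1362 and -0.72 with sh490. CDC25B had 2160 counts (242 TPM) in sh1362, 2897 (329.6 TPM) in sh490 and 1847 (335 TPM) in shGFP. CDC25B was at 95.7% (90.2 to 101) of shGFP in sh490, and in sh1362 it stood at 80.1% (75.7 to 84.7) of sh490. CDC25C had 182 counts (26.3 TPM) in sh1362, 482 (70.9 TPM) in sh490 and 255 (59.8 TPM) in shGFP. CDC25C, the lowest of the 3 against sh490, stood at 40.5% (33.997 to 48.2) of sh490 in sh1362 and at 115% (98.9 to 135) of shGFP in sh490, an interval that includes equality.

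Among the mitotic kinases, PLK1 (ENSG00000166851.15, chromosome 16, 23677656 to 23690367, plus strand), the Polo-like kinase of mitotic entry and spindle assembly, differed most between the hairpins of all 46 genes. PLK1 had 196 counts (19.9 TPM) in sh1362, 590 (60.8 TPM) in sh490 and 255 (41.9 TPM) in shGFP. It was at 35.7% (30.2 to 41.99) of sh490 in sh1362, and in sh490 it was above shGFP, at 141% (122 to 164). AURKA had 669 counts (110.2 TPM) in sh1362, 1159 (194 TPM) in sh490 and 785 (209.7 TPM) in shGFP. Aurora A, the centrosome kinase it encodes, was at 55.8% (50.3 to 61.97) of shGFP in sh1362 and 90.1% (82.2 to 98.7) in sh490. The chromosomal passenger complex joins Aurora B to its partners at the inner centromere and later at the midzone. AURKB, the kinase, was the lowest of the complex in sh1362 against shGFP, and lies at ENSG00000178999.13, chromosome 17, 8204733 to 8210600, minus strand. AURKB had 392 counts (84.4 TPM) in sh1362, 1014 (222 TPM) in sh490 and 700 (244 TPM) in shGFP. Its level was 36.7% (32.3 to 41.6) of shGFP in sh1362 and 88.4% (80.2 to 97.4) in sh490. The scaffold INCENP, borealin (CDCA8) and survivin (BIRC5) were at 50.1%, 51.5% and 61.9% of sh490 in sh1362. BIRC5 had 456 counts (57.7 TPM) in sh1362, 791 (102 TPM) in sh490 and 513 (105 TPM) in shGFP. Survivin was thus the nearest of the complex to sh490.

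Of 5 spindle checkpoint genes, 3 were at least 2-fold lower in sh1362 than in sh490, and BUB3 stood apart from the other 4. BUB1 had 938 counts (71.8 TPM) in sh1362, 2200 (171 TPM) in sh490 and 1484 (184 TPM) in shGFP. BUB1 (ENSG00000169679.15, chromosome 2, 110637528 to 110678063, minus strand), a kinetochore kinase that recruits other checkpoint proteins, was at 45.8% (42.4 to 49.4) of sh490 in sh1362. BUB1B had 386 counts (41.6 TPM) in sh1362, 917 (101 TPM) in sh490 and 616 (108 TPM) in shGFP. BUB1B, which encodes the CDC20-binding protein BUBR1, was lowest at 45.2% (40.03 to 50.96), and TTK, the kinase that starts checkpoint signalling, at 48.9% (42.6 to 55.99). MAD2L1 had 498 counts (43.6 TPM) in sh1362, 829 (73.8 TPM) in sh490 and 631 (89.5 TPM) in shGFP. MAD2, the CDC20 inhibitor encoded by MAD2L1, was at 64.5% (57.6 to 72.2) of sh490 in sh1362. BUB3 had 1354 counts (79.9 TPM) in sh1362, 1565 (93.97 TPM) in sh490 and 1073 (103 TPM) in shGFP. BUB3, the WD40 partner of BUB1 and BUBR1, differed least of the 5, at 92.9% (86.3 to 99.97) of sh490 and 82.7% (76.2 to 89.6) of shGFP in sh1362.

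The target of that checkpoint, CDC20 (ENSG00000117399.14, chromosome 1, 43358981 to 43363203, plus strand), which activates the anaphase-promoting complex, was among the genes most different between the hairpins. CDC20 had 367 counts (88.02 TPM) in sh1362, 1034 (252 TPM) in sh490 and 521 (203 TPM) in shGFP. In sh1362 it was at 38.1% (33.7 to 42.97) of sh490, and in sh490 it was above shGFP, at 121% (109 to 135). UBE2C had 461 counts (173 TPM) in sh1362, 856 (327 TPM) in sh490 and 548 (333 TPM) in shGFP. UBE2C, the ubiquitin-conjugating enzyme that works with the complex, was at 57.8% (51.5 to 64.8) of sh490 in sh1362. Securin (PTTG1), which the complex destroys to free separase, had 817 counts in sh1362, 1896 in sh490 and 1161 in shGFP. It was at 46.3% (42.6 to 50.2) of sh490 in sh1362 and level between sh490 and shGFP, at 99.6% (92.6 to 107). PTTG1 has near-identical retrocopies, and reads that map to several places were not counted, so its level is uncertain.

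All 6 kinetochore and centromere genes lay lower in sh1362, with log2 folds over sh490 between -1.12 and -0.54. NDC80 had 497 counts (67.5 TPM) in sh1362, 983 (136 TPM) in sh490 and 694 (153 TPM) in shGFP. NDC80 (ENSG00000080986.13, chromosome 18, 2571557 to 2616635, plus strand), the microtubule-binding arm of the outer kinetochore, was at 54.3% (48.6 to 60.5) of sh490 in sh1362. Its complex partners NUF2 and SPC25 were at 55.3% (46.1 to 66.3) and 61.6% (52.5 to 72.2). CENPE had 729 counts (35.4 TPM) in sh1362, 1706 (84.4 TPM) in sh490 and 890 (70.1 TPM) in shGFP. CENPE, a kinesin of the kinetochore that carries chromosomes to the spindle equator, was lowest of the 6 at 45.9% (42.01 to 50.1) of sh490 in sh1362, and in sh490 it was at 117% (108 to 127) of shGFP. CENPF, a large kinetochore and nuclear matrix protein, was close to it at 46.8% (44.5 to 49.3) of sh490. CENPA had 121 counts (29.96 TPM) in sh1362, 190 (47.9 TPM) in sh490 and 118 (47.4 TPM) in shGFP. CENPA, the histone H3 variant of centromeres, differed least at 68.4% (53.98 to 86.3) of sh490, with the fewest counts and the widest interval of the group.

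The level of all 4 mitotic kinesins was lowest in sh1362. KIF11 had 760 counts (73.1 TPM) in sh1362, 1506 (147 TPM) in sh490 and 853 (133 TPM) in shGFP. KIF11 (ENSG00000138160.6, chromosome 10, 92593130 to 92655395, plus strand), the motor that pushes spindle poles apart, was at 54.2% (49.6 to 59.2) of sh490 in sh1362. In sh490 it was at 108% (98.96 to 117) of shGFP, an interval that includes equality. KIF20A had 622 counts (77.9 TPM) in sh1362, 1601 (204 TPM) in sh490 and 764 (155 TPM) in shGFP. KIF20A, a midzone kinesin needed for cytokinesis, differed most of the 4, at 41.7% (37.97 to 45.8) of sh490 in sh1362, and was above shGFP in sh490 at 128% (117 to 139.5). KIF2C, a microtubule-depolymerising kinesin, was at 43.6% (39.6 to 47.9). KIF23 had 541 counts (39.7 TPM) in sh1362, 797 (59.5 TPM) in sh490 and 630 (74.9 TPM) in shGFP. KIF23, the kinesin of the centralspindlin complex, was below shGFP in both hairpin libraries, at 56.2% (50.1 to 63.2) in sh1362 and 77.2% (69.4 to 85.8) in sh490.

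Among spindle assembly genes, 4 of 6 had enough reads to compare. DLGAP5 had 486 counts (65.2 TPM) in sh1362, 1321 (180.3 TPM) in sh490 and 838 (182 TPM) in shGFP. DLGAP5 (HURP), which stabilises microtubules near chromosomes, was at 39.5% (35.5 to 43.9) of sh490 in sh1362. TPX2, the activator of Aurora A on the spindle, was at 50.2% (46.5 to 54.2) and ASPM, a spindle pole protein, at 44.4% (40.6 to 48.4). HMMR, a microtubule-associated protein and hyaluronan receptor, differed less, at 79.04% (72.3 to 86.4) of sh490 in sh1362. HMMR had 862 counts (106 TPM) in sh1362, 1171 (146 TPM) in sh490 and 700 (139 TPM) in shGFP. PRC1, a midzone cross-linker, had 20, 45 and 21 counts and NUSAP1, a spindle-stabilising protein, 6, 12 and 2, in sh1362, sh490 and shGFP. In the annotation used for counting, 81.4% of the exon bases of NUSAP1 and 57.6% of those of PRC1 also belong to an unnamed gene on the same strand. Reads overlapping more than 1 gene were not counted, so the levels of these 2 are uncertain. In the plot of levels by library, NUSAP1 is the only gene whose lowest library is not sh1362. Smaller overlaps touched NCAPG (33.7% of exon bases), SMC4 (22%), FOXM1 (15.9%) and PLK1 (12.8%).

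The 2 cytokinesis genes lay far apart. ECT2 had 1119 counts (98.2 TPM) in sh1362, 2294 (205 TPM) in sh490 and 1341 (191 TPM) in shGFP. ECT2, the exchange factor that activates RhoA at the cleavage plane, was at 52.4% (48.7 to 56.3) of sh490 in sh1362. ANLN had 825 counts (66.4 TPM) in sh1362, 917 (75.1 TPM) in sh490 and 635 (82.8 TPM) in shGFP. Anillin (ANLN), the scaffold of the contractile ring, was the least different of all 46 genes, at 96.6% (87.8 to 106) of sh490 in sh1362, an interval that includes equality.

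TOP2A and MKI67, widely used as markers of dividing cells, were the lowest of the chromosome group in sh1362, against sh490 and against shGFP. TOP2A had 1321 counts (100.01 TPM) in sh1362, 3467 (267 TPM) in sh490 and 2394 (294 TPM) in shGFP. TOP2A (ENSG00000131747.15, chromosome 17, 40388525 to 40417896, minus strand), which untangles sister chromatids, was at 40.9% (38.4 to 43.6) of sh490 and 36.1% (33.8 to 38.7) of shGFP in sh1362. MKI67 had 2517 counts (94.6 TPM) in sh1362, 6385 (244 TPM) in sh490 and 4277 (260.4 TPM) in shGFP. MKI67 (ENSG00000148773.14, chromosome 10, 128096659 to 128126423, minus strand), which encodes Ki-67, the coat of mitotic chromosomes, was at 42.3% (40.4 to 44.3) of sh490 and 38.5% (36.7 to 40.5) of shGFP in sh1362, with 91.1% (87.6 to 94.7) in sh490. The condensin I subunits NCAPH and NCAPG were at 52.9% (47.4 to 59.03) and 62.5% (57.8 to 67.7) of sh490 in sh1362. SMC2 had 863 counts (64.4 TPM) in sh1362, 1200 (91.05 TPM) in sh490 and 875 (106 TPM) in shGFP. The core ATPases SMC4 and SMC2, which both condensins use, were closer to sh490, at 70.04% (63.9 to 76.8) and 77.2% (70.7 to 84.3). All 6 genes of this group had intervals below equality in sh490 against shGFP, where 21.8% of all genes had. Their levels ran from 75.2% (69.03 to 81.99) for SMC4 to 91.1% (87.6 to 94.7) for MKI67.

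The 2 transcription factors of the list differed in size. MYBL2 had 407 counts (70.7 TPM) in sh1362, 1117 (198 TPM) in sh490 and 771 (217 TPM) in shGFP. MYBL2 (ENSG00000101057.16, chromosome 20, 43667019 to 43716495, plus strand), B-MYB, was at 39.1% (34.8 to 43.9) of sh490 and 34.6% (30.6 to 39.04) of shGFP in sh1362. FOXM1 had 932 counts (91.8 TPM) in sh1362, 1673 (168 TPM) in sh490 and 1170 (187 TPM) in shGFP. FOXM1, the forkhead factor recruited after B-MYB, was at 59.8% (55.2 to 64.8) of sh490 and 52.2% (47.8 to 56.9) of shGFP. In sh490 they were at 88.4% (80.6 to 97.001) and 87.2% (80.9 to 94.1) of shGFP.

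By role, the medians of log2 sh1362 over sh490 ran from -1.15 for the CDC25 phosphatases and -1.11 for CDC20, UBE2C and PTTG1, through -1.08 for spindle assembly and for PLK1 with AURKA, -1.04 for the transcription factors, -1.04 for kinesins, -1.03 for the checkpoint, -0.97 for the passenger complex and -0.86 for kinetochores, to -0.80 for the chromosome group, -0.71 for cyclins and CDK1 and -0.49 for cytokinesis. Groups hold few genes, and members are not replicates, so this order is a description. Against shGFP the sh490 medians by role lay between -0.27 (cyclins and CDK1) and 0.17 (PLK1 and AURKA). In sh490 the interval lay above shGFP in 6 of 46 genes, a smaller share than among all genes (20.9%). The 6 were CCNB2, PLK1, CDC20, CENPE, KIF20A and ASPM.

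Genes of the wider mitotic machinery were listed by function in the same way, 139 in 6 lists, of which 134 reached 5 CPM and are counted here. None of the 137 tested passed edgeR's test over all genes (7 at an unadjusted p under 0.05, 6 of them lower, where 4.36% of all genes had such a p). Of other kinesins and spindle genes, 12 of 28 were at least 2-fold lower in sh1362 than in sh490 (median log2 -0.93), and 0 of 28 at least 2-fold higher. The share of all genes at least 2-fold lower in that comparison, 3.88%, stands behind this count and the counts over sh490 that follow. Over all 134 genes, 23 were at least 2-fold lower in sh1362 than in sh490, and 31 than in shGFP (all genes 5.99%). CEP55, which recruits the machinery of abscission, had 253 counts in sh1362, 1094 in sh490 and 741 in shGFP, log2 -2.00 over sh490. PIMREG and TROAP were next at -1.91 and -1.79, and DEPDC1 was the nearest to sh490 at -0.24.

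Other kinetochore and centromere genes were mostly lower in sh1362 than in sh490, 28 of 32 below 0 and 4 above, with 4 of 32 at least 2-fold lower and a median of -0.43. CENPK, CENPN and CENPI, of the constitutive centromere network, were lowest at -1.86, -1.45 and -1.32, and KNL1, the outer kinetochore platform of BUB1, was at -1.05. MIS18A, which helps load CENPA, MIS12, of the kinetochore stalk, and SKA2 were above sh490, at 0.48, 0.46 and 0.30. Subunits and regulators of the anaphase-promoting complex had a median of -0.02, with 0 of 16 at least 2-fold lower. CDC16 and CDC23, core subunits, were at 0.41 and 0.27, and the lowest, ANAPC2, at -0.79. Beside them, CDC20 was at -1.39 and UBE2C at -0.79 on the same scale.

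Of cohesin and other condensin genes 3 of 18 were at least 2-fold lower in sh1362 than in shGFP (all genes 5.99%), with a median of -0.53. Against sh490, 1 of 18 was at least 2-fold lower, a share near that of all genes (3.88%), with a median of -0.38. It was ESPL1, separase, at -1.40. NCAPG2 and NCAPD2 were at -0.98 and -0.79, and the cohesin core subunit SMC3 and the acetyltransferase ESCO1 at 0.14 and 0.42. Among gatekeepers of G2, 4 of 20 were at least 2-fold lower (median -0.41). WEE1, the kinase that holds CDK1 inactive, had 161 counts in sh1362, 440 in sh490 and 409 in shGFP. Its normalised level was 25.8% (21.4 to 31.0) of shGFP in sh1362 and 65.6% (57.2 to 75.3) in sh490. In sh1362 its log2 fold over sh490 was -1.34. PBK and NEK2, mitotic kinases, were at -1.51 and -1.23, and BORA, which helps Aurora A activate PLK1, at -1.19. The inhibitor CDKN1A (p21) was not higher in sh1362, with 354, 555 and 308 counts in sh1362, sh490 and shGFP. Its normalised level was 75.3% (64.4 to 88.0) of shGFP in sh1362 and 110% (95.5 to 127) in sh490. In sh1362 its log2 fold over sh490 was -0.54. CCNH and CDK7, of the CDK-activating kinase, were at 0.41 and 0.32.

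In the list of MuvB, DREAM and E2F genes, 2 of 20 were at least 2-fold lower in sh1362 than in sh490 (median -0.24), the E2F factors E2F8 (-1.54) and E2F2 (-1.07). In the 6 lists, 1 of 134 genes was at least 2-fold higher in sh490 than in shGFP, a share below that of all genes (1.39%). In sh1362, 0 were at least 2-fold higher than in shGFP (all genes 3.29%) and 0 than in sh490 (all genes 2.02%). The 1 was RB1, the retinoblastoma gene, named for that after its values were seen. RB1 had 633 counts in sh1362, 813 in sh490 and 231 in shGFP, or 179% (154 to 209.6) of shGFP in sh1362 and 215% (185 to 249.6) in sh490. LIN9, the MuvB core subunit, had 217, 257 and 148 counts in sh1362, sh490 and shGFP. Its normalised level was 96.0% (77.6 to 119) of shGFP in sh1362 and 106% (86.2 to 131) in sh490. In sh1362 over sh490, LIN9 was at log2 -0.14 and LIN54, the DNA-binding subunit of MuvB, at -0.93. S phase and replication genes, 38 of 40 with enough reads, were taken as a list from the phase before. Their median was -0.66 for sh1362 over sh490, -0.96 for sh1362 over shGFP and -0.29 for sh490 over shGFP, with 2 of 38 at least 2-fold lower in sh1362 than in sh490 (all genes 3.88%) and 15 of 38 lower than in shGFP (all genes 5.99%). The first share is near that of all genes. The 2 lower than in sh490 were RRM2, a subunit of ribonucleotide reductase, at -1.47, and TYMS, thymidylate synthase, at -1.23. Whether mitotic and S phase genes differ in this was not tested.

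**Figure D4:**
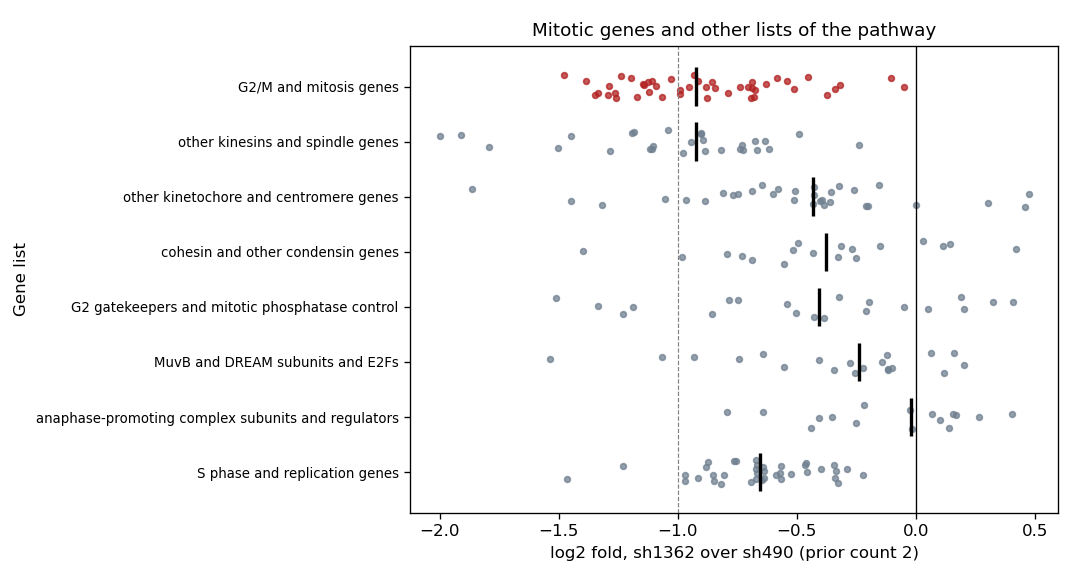
log2 fold of sh1362 over sh490 for each gene that reached 5 CPM, in the mitotic list (red) and 7 other lists of the pathway (grey), with the median as a black bar; the dashed line marks 2-fold lower. Spindle genes centre near the mitotic genes, S phase genes lie between them and equality, and subunits of the anaphase-promoting complex centre on equality.

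Promoters were examined because mitotic genes are known to be controlled through a shared element, the cell cycle genes homology region (CHR), to which MuvB binds. The shares below describe the list and not these libraries. Any link to the lower levels in sh1362 was not tested. RefSeq promoters (build GRCh38.p14, from 250 bases before to 50 after the annotated start) were matched by symbol for 41 of the 48 genes. A CHR-type word, TTTGAA or TTTAAA on either strand, was present in 34 of 41 member promoters (82.9%), 4 of 35 S phase promoters (11.4%) and 6625 of 27305 promoters in the table (24.3%). In the last 100 of the 300 bases, nearest the start, it was in 28 of 41 member promoters (68.3%), 2 of 35 S phase promoters (5.71%) and 2117 of 27305 promoters in the table (7.75%). The CCAAT box, bound by NF-Y, was found on either strand in 29 of 41 member promoters (70.7%), 20 of 35 S phase promoters (57.1%) and 9747 of 27305 promoters in the table (35.7%), and at least 2 of them in 20 of 41 member promoters (48.8%), 11 of 35 S phase promoters (31.4%) and 3092 of 27305 promoters in the table (11.3%). In the last 100 bases a CCAAT box was in 8 of 41 member promoters (19.5%), 11 of 35 S phase promoters (31.4%) and 3023 of 27305 promoters in the table (11.1%), so there the S phase share was the higher of the first 2. Both kinds of word stood in 25 of 41 member promoters (61.000%), 2 of 35 S phase promoters (5.71%) and 2592 of 27305 promoters in the table (9.49%). An E2F-type word, TTTNGCGC, was in 3 of 41 member promoters (7.32%), 13 of 35 S phase promoters (37.1%) and 500 of 27305 promoters in the table (1.83%). These are matches of letters, not sites shown to be used.

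The 32 members with a CHR-type word had a median log2 fold of sh1362 over sh490 of -0.90, and the 7 without it -1.15. The 3 genes with the lowest fold and the 3 with the highest, among those matched, are printed to show both ends, in lower case with CHR-type words and CCAAT boxes (ATTGG on the other strand) in capitals. They are PLK1 at chr16:23678639-23678938 on the plus strand, CDC20 at chr1:43358731-43359030 on the plus strand, MYBL2 at chr20:43666864-43667163 on the plus strand, HMMR at chr5:163460382-163460681 on the plus strand, CDC25B at chr20:3786701-3787000 on the plus strand and ANLN at chr7:36389612-36389911 on the plus strand, and each is written 5′ to 3′ along its gene. Starts are those of RefSeq, and TTTAAA reads the same on both strands.
PLK1: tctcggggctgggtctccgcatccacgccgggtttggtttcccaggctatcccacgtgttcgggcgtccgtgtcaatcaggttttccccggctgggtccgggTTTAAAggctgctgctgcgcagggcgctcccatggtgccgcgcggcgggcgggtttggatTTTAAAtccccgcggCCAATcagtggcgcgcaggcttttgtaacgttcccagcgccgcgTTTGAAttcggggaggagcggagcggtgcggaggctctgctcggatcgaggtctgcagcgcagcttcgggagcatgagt
CDC20: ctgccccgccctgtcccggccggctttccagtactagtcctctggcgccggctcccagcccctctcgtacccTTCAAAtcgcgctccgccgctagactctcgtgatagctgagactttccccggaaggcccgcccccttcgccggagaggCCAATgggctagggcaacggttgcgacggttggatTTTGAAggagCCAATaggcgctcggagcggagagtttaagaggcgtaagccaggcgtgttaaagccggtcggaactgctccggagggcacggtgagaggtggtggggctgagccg
MYBL2: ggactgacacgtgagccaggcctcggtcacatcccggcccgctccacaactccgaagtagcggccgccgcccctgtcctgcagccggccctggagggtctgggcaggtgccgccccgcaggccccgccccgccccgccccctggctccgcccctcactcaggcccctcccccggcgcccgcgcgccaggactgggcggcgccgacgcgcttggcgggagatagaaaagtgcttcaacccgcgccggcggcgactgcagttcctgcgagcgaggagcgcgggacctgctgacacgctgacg
HMMR: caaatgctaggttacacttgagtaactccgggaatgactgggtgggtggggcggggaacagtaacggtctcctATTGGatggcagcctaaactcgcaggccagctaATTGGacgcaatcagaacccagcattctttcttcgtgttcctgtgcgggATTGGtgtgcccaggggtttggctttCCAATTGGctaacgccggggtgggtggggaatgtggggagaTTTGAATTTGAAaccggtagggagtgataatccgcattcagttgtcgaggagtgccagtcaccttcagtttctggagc
CDC25B: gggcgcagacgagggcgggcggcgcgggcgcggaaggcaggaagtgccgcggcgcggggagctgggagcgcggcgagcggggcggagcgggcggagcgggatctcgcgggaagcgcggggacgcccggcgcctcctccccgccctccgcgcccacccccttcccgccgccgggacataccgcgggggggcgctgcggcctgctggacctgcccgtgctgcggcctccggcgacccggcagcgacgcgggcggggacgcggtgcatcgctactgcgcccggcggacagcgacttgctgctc
ANLN: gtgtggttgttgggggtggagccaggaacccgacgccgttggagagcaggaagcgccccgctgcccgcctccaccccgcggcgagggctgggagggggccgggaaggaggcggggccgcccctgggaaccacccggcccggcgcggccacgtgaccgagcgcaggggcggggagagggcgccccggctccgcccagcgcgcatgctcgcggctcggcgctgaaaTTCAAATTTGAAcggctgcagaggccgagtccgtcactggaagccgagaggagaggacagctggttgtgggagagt

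PLK1 holds 3 CHR-type words and 1 CCAAT box, with a CHR-type word beginning 29 bases before the start, and CDC20 2 and 2. HMMR, among the least different genes, holds 2 adjoining CHR-type words and 5 CCAAT boxes, some overlapping on opposite strands, and ANLN 2 adjoining CHR-type words and no CCAAT box. MYBL2, among the lowest, and CDC25B, among the highest, hold neither word in these windows.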

How the data were processed

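RNA of NCI-H209 cells was made into 3 libraries with a SMARTer mRNA-seq kit, per the labels' protocols. The deposited tables, 1 for each library, hold whole-number counts per gene, not normalised. FastQC 0.11.8, STAR 2.6.1c and the build GRCh38 are named in the submitters' processing notes; reads were assigned to exons of GENCODE version 32 with featureCounts 1.6.0, per the file headers. The command in those headers sets no option for strand or for multiple mapping, so both strands were added together and reads overlapping several genes or mapping to several places were left out. Of 60609 genes, 60295 were matched to a symbol. Merged exon lengths from the deposited tables were used for TPM.

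edgeR 4.0.16 (R 4.3.3) compared both YES1 hairpins with shGFP: TMM factors, filterByExpr (15708 genes kept, all 48 mitotic genes among them), robust quasi-likelihood F test, two-sided, Benjamini-Hochberg over all genes. The fit was tested on simulated data. No outcome of that is given here, so its error rate with 1 residual degree of freedom is not shown. DESeq2 1.42.0 and limma-voom 3.58.1 were alternatives. Single libraries were compared without a test, on a log2 CPM scale (prior count 2) over the 11632 genes whose mean reached 5 CPM, and as ratios of normalised counts with exact conditional 95% intervals. Depth was 7421552 counts in sh1362, 7791747 in sh490 and 4899006 in shGFP.

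The members, lists and settings were chosen with earlier results of these data known. All members could be named; full values were given for 16 central genes and for the lowest and highest of each role by sh1362 over sh490, and in the wider lists for up to 3 at each end plus WEE1, CDKN1A and LIN9, with KNL1, BORA and RB1 added after their values were seen. Promoters printed are those of the 3 lowest and 3 highest genes.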

Additional observations from a re-analysis of the deposited data

How the results depend on the processing

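With 1.5-fold in place of 2-fold, 41 of 46 genes were counted lower in sh1362 than in shGFP, 2 in sh490 than in shGFP, and 37 in sh1362 than in sh490, against 15.2%, 6.31% and 12.2% of all genes. The median log2 fold of sh1362 over shGFP was -0.90 with upper-quartile factors, -0.92 with no filter on low values and -0.99 from summed counts. That of sh490 over shGFP was -0.092 with library totals only, -0.10 with no filter and -0.10 from summed counts. That of sh1362 over sh490 was -0.96 with library totals only, -0.88 with upper-quartile factors and -0.89 from summed counts. With both hairpins averaged, leaving out each hairpin library in turn gave -0.95 and -0.14. Other normalizations and prior counts left the count of genes at least 2-fold lower between 18 and 21 for sh1362 over sh490, at 19 for sh1362 over shGFP and at 0 for sh490 over shGFP. No member passed under any tool tried (edgeR, DESeq2, limma-voom); without a filter on low counts 11 of 48 had an unadjusted edgeR p under 0.05 (all genes 4.97%), while adjusted calls over all genes came to 22 higher and 36 lower against 0 and 4 with the filter; the lowest adjusted p of a member was then 0.112, for CDC25A. Of 630 alternative values for 30 named genes, 630 stayed within the counting interval and 0 were reversed. Low counts, at most 45, limit NUSAP1 and PRC1. Most of their exon bases also belong to another gene, and reads overlapping both were not counted. No paired analysis was possible because the labels carry no replicate numbers and there is 1 shGFP library.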
